A study of Mus musculus with 4 samples.

Results

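Transcript levels of 8 genes of the brain extracellular matrix were described in cultured mouse neural stem cells. The genes were Tnc, Ncan, Bcan, Vcan, Cspg5, Ptprz1, Sdc3 and Hapln1. They were taken by gene name as a functional group, and all 8 were found among the 55487 genes of the table. The study asked what Tut1, a uridylyltransferase for U6 snRNA, does in neural stem cells, and sequenced RNA from 4 cultures, 1 library each. The control culture had the genotype Tut1f/f and received empty lipid nanoparticles (LNP). The culture labelled Tut1 KO had the same genotype and received Cre-LNP, particles with mRNA for the Cre recombinase. The Trp53 KO culture was p53f/f and the double KO culture was Tut1f/f;p53f/f, and both received Cre-LNP. All were primary cells from embryonic neocortices, grown as neurospheres with FGF and EGF and taken 3 days after the particles were given. The control thus lacked Cre as well as the deletion, and every group was a single library.

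The matrix of the brain has little fibrous collagen and is built on hyaluronan, a long sugar polymer. Lecticans (neurocan from Ncan, brevican from Bcan, versican from Vcan) are chondroitin sulfate proteoglycans that bind hyaluronan at one end and tenascins at the other. Link proteins such as Hapln1 lock lecticans onto hyaluronan, and tenascin C (Tnc) is a multi-armed glycoprotein of the stem cell niche that binds lecticans and integrins. Ptprz1, Cspg5 and Sdc3 sit in the cell membrane. Ptprz1 is a receptor phosphatase with chondroitin sulfate chains, Cspg5 (neuroglycan C) a transmembrane chondroitin sulfate proteoglycan, and Sdc3 (syndecan 3) carries heparan sulfate. Tnc and Hapln1 are glycoproteins that work with proteoglycans rather than proteoglycans themselves.

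The libraries were first set against their labels. All 12 neural stem cell markers reached a level of 10 TPM, a unit scaled to transcript length and library total, in at least 1 library, with a summed level between 10843 and 12764 TPM, led by Fabp7, Vim and Nes. The 6 microglial, 5 endothelial and 7 mesenchymal or pericyte markers each stayed under 1 TPM in every library. Of 10 neuronal markers 3 reached 10 TPM, led by Map2, Tubb3 and Snap25, and the neuronal sum was 167 to 241 TPM. The astrocyte list had 3 of 7 markers at 10 TPM (led by Aldoc, Aldh1l1 and Gja1) with Gfap and Aqp4 under 1 TPM, and summed to 299 to 326 TPM. The oligodendrocyte lineage list, led by Olig1, Olig2 and Cspg4, had 5 of 8 and summed to 1570 to 1774 TPM. Cspg4 and Dcn stand in a matrix list as well. Tut1 had 12.2 TPM without Cre but 29.8 TPM where the label is Tut1 KO, so the direction of that comparison rests on the label. The study describes the floxed part of Tut1 as exon 2 and measured its loss by that exon, and a TPM over the whole gene cannot show the deletion of 1 exon. In the remaining libraries Tut1 was at 12.5 (Trp53 KO) and 13.7 TPM (double KO). Trp53 was lower in the cultures labelled as deleted, with 39.7 and 41.9 TPM against 120 and 100.4 TPM. The cultures labelled Tut1 KO and Trp53 KO had 188 and 204 TPM of Xist, the control and the double KO 0.01 TPM, while Y-linked Ddx3y was at 24.4 and 25.7 TPM in the latter and listed at 0 in the former.

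Most of the 8 genes were abundant. Ptprz1 was the highest of them in every library, Cspg5 came sixth, Vcan seventh and Hapln1 last. Between Ptprz1 and Cspg5 the order of Bcan, Sdc3, Tnc and Ncan differed among the libraries, and with 1 library per group no spread was available to say which neighbours differ. Summed over the 8 genes the control held 1420 TPM, the library labelled Tut1 KO 1204 TPM, the Trp53 KO library 1254 TPM and the double KO library 1283 TPM. Where 4 values follow each other below, they keep this order of libraries. That is 0.120 to 0.142% of all transcripts. TPM divides by transcript length, which makes levels of different genes comparable for short reads. Whether the table was made from short or long reads is uncertain, so the order of genes and their sums hold on the deposited scale. In bulk RNA, fewer cells of a type and less RNA per cell cannot be told apart.

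**Figure D1:**
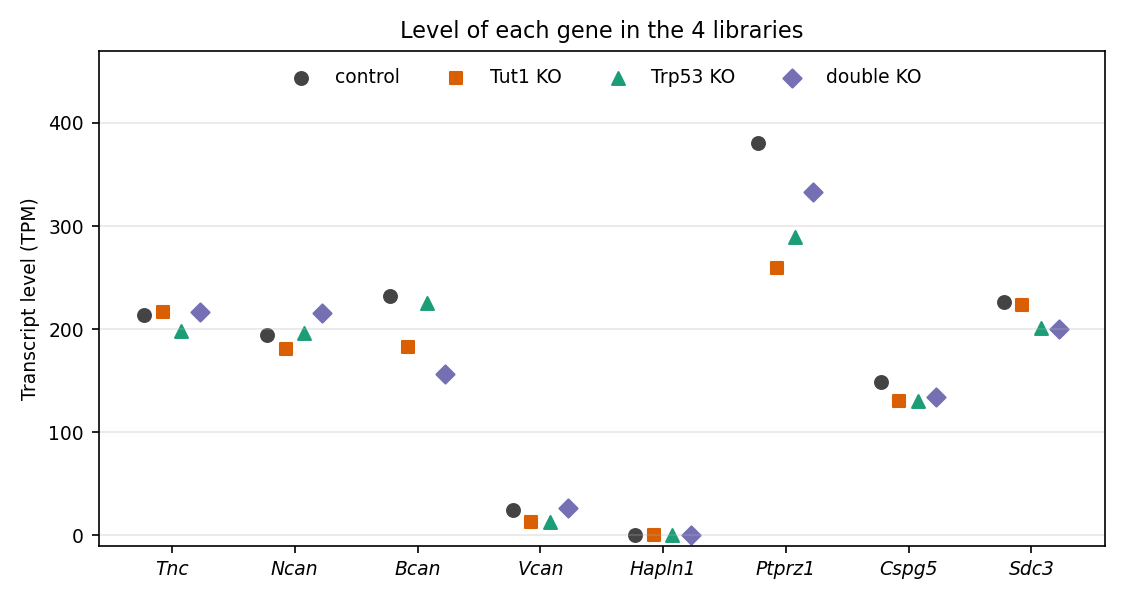
Level of each of the 8 genes in TPM (vertical axis, linear), with 1 point per library, grouped by gene. Ptprz1 spans 259 to 381 TPM, Vcan lies between 12.5 and 26.2 TPM and Hapln1 lies at or near 0.

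The lecticans were led by Ncan and Bcan. Ncan (ENSMUSG00000002341, chromosome 8, 70093085 to 70120873, minus strand, GRCm38) had 194, 181, 197 and 216 TPM. It was the steadier of the pair, with a range of 0.25 on the log2(TPM + 1) scale. Bcan (ENSMUSG00000004892, chromosome 3, 87987531 to 88000230, minus strand) had 232, 182, 225 and 157 TPM. Both libraries with a Tut1 KO label were thus the low ones for Bcan, and the range was 0.57. Vcan (ENSMUSG00000021614, chromosome 13, 89655312 to 89742509, minus strand) had 24.5, 12.5, 13.4 and 26.2 TPM, and here the control and the double KO were high and the other 2 libraries low. Its range of 1.01 was the widest of the 7 genes that reached 10 TPM in some library.

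The makeup of the lectican group was read as shares within each library, which a common scaling factor leaves as they are but the GC and length correction does not. Vcan made up 5.43% of the summed lectican TPM in the control and 6.58% in the double KO, against 3.32% in the library labelled Tut1 KO and 3.07% in the Trp53 KO. The ratio of Bcan to Ncan was 1.20, 1.01, 1.15 and 0.73, lowest where both deletions were labelled. Ncan was therefore the leading lectican in the double KO library, and Bcan in the control and the Trp53 KO. In the library labelled Tut1 KO the pair were close to even. After the correction the Vcan shares were 4.99, 3.92, 3.08 and 6.12%, and the ratios of Bcan to Ncan 1.22, 0.94, 1.15 and 0.76.

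**Figure D2:**
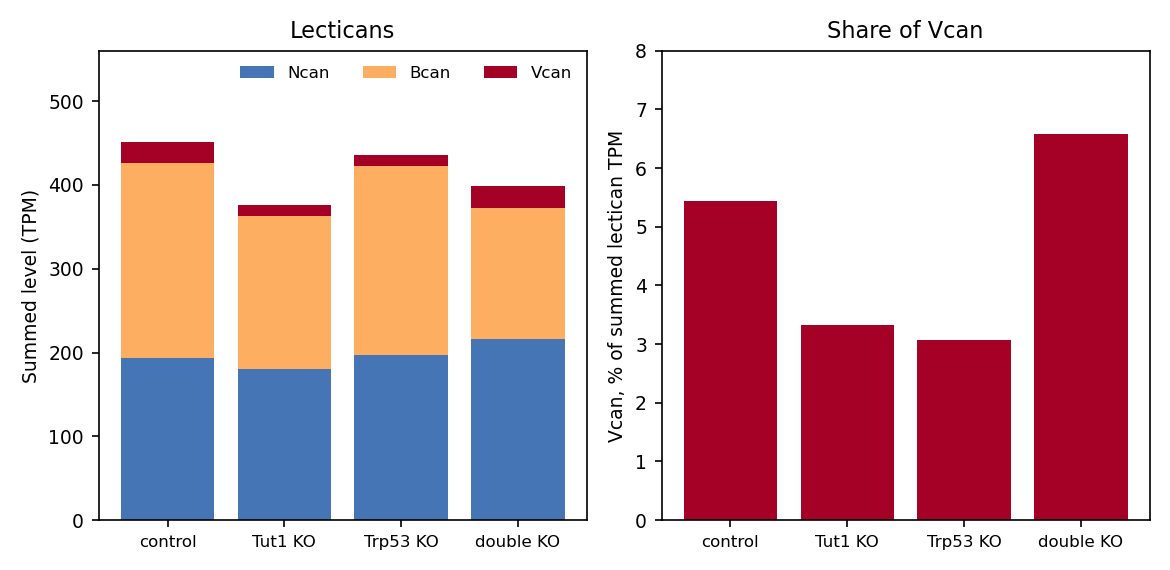
Left, summed level of the 3 lecticans in TPM, stacked by gene, in each library. Right, Vcan as a percentage of that sum, from 3.07% in the Trp53 KO to 6.58% in the double KO library.

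Tnc and the membrane proteins varied less than Vcan. Tnc (ENSMUSG00000028364, chromosome 4, 63959785 to 64047015, minus strand) had 214, 216, 198 and 217 TPM. Its range of 0.13 was the narrowest among the 7 genes as deposited, but after the correction for GC content and length it was 0.19, wider than that of Cspg5 or Sdc3. Ptprz1 (ENSMUSG00000068748, chromosome 6, 22875502 to 23052916, plus strand) had 381, 259, 289 and 333 TPM. The control was its highest library and the range was 0.55, close to that of Bcan on the deposited scale. After the correction the range was 0.26 for Ptprz1 and 0.49 for Bcan. Cspg5 (ENSMUSG00000032482, chromosome 9, 110243783 to 110262576, plus strand) had 149, 130, 130.3 and 134 TPM, so that on the deposited scale the control stood above 3 nearly equal libraries. Corrected for GC content and length, Cspg5 in the library labelled Tut1 KO lay near the control, and the range went from 0.19 to 0.11. Sdc3 (ENSMUSG00000025743, chromosome 4, 130792537 to 130826319, plus strand) had 226 and 223 TPM in the libraries with Trp53 intact and 201 and 200.5 TPM in those without. These differences were small, and the range of Sdc3 was 0.17.

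Hapln1 (ENSMUSG00000021613, chromosome 13, 89539796 to 89611652, plus strand) was at 0.06 TPM in the control and listed at 0 in the other libraries. It passed no minimum, and no fold was computed. Each lectican gene has a link protein gene as its neighbour in the genome. Hapln1 and Vcan face each other with their 3′ ends across a gap of 43659 bases, Hapln2 lies 21519 bases from Bcan, Hapln4 lies 2222 bases from Ncan and Hapln3 lies 2 bases from Acan. For the 3 lecticans among the members, the neighbour had a far lower level than the lectican itself. Hapln4 beside Ncan was the most abundant link protein at 4.39, 4.41, 6.35 and 5.93 TPM. Hapln2 beside Bcan was at 0.05 to 0.10 TPM. Acan, which encodes aggrecan, was at 0.35 to 0.69 TPM and Hapln3 at 0.44 to 1.01 TPM, so in that pair both were near 0. Link protein transcripts were thus low or near 0 in all libraries in which Ncan and Bcan each had 157 TPM or more.

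Promoter windows in RefSeq (GRCm38.p6) were matched by symbol for 7 of the 8 genes, all but Cspg5. The 250 bases before the start site are shown for Vcan, which had the widest range, for Bcan, which was lower in both libraries with a Tut1 KO label, and for Ptprz1, the most abundant. Vcan is at chr13:89742513-89742762 (minus strand), Bcan at chr3:88000357-88000606 (minus strand) and Ptprz1 at chr6:22875252-22875501 (plus strand). The RefSeq start of Bcan lies 126 bases upstream of the GENCODE gene and in none of its transcripts, so the Bcan stretch holds for the RefSeq start alone. Each reads 5′ to 3′ toward the start site, and capitals mark a GC box or a CCAAT box.
Vcan: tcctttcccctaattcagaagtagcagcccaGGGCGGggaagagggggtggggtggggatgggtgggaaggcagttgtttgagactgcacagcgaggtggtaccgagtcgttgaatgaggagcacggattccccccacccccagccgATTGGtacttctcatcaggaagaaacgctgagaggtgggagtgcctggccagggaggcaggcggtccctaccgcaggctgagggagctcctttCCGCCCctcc
Bcan: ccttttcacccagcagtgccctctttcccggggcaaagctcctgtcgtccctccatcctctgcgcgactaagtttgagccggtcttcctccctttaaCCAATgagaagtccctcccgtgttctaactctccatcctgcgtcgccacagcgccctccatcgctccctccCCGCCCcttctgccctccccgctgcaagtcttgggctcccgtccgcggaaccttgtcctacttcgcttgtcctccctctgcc
Ptprz1: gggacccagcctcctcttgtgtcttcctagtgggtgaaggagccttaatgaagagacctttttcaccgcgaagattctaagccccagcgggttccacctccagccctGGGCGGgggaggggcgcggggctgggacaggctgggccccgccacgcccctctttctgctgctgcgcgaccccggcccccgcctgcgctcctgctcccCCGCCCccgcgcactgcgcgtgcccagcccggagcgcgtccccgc

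All windows of 300 bases, 250 before the start and 50 after, were searched on both strands. The GC box (GGGCGG) was found in 35.7% of the 32851 windows, the CCAAT box (CCAAT) in 37.4%, the TATA box (TATAAA) in 13.6%, a SOX motif (ACAAAG) in 18.7% and an AP-1 motif (TGANTCA) in 7.81%. The Vcan window held GC boxes beginning at -219 and -10 from the start and a CCAAT box at -103. The Bcan window held a GC box at -82 and a CCAAT box at -153, and that of Ptprz1 held GC boxes at -143 and -45. Tnc and Ncan were the members with TATAAA in their windows, and none of the 7 genes had the SOX or the AP-1 letters there. Ptprz1 had 29 CpG dinucleotides in its window, Bcan 24 and Vcan 12, where the median over all windows was 7. The Hapln1 window had 3 CpG and none of the 5 motifs. These matches describe letters and are not evidence of binding.

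Differences were then taken between libraries as log2(TPM + 1), among genes with at least 10 TPM in 1 of the 2 libraries, and a gene was called at a difference of at least 1. A difference named as one library against another is the former less the latter. With 1 library per group no test was run, and no difference below has an error. In Tut1 KO against control, which compared the Tut1 label with Trp53 intact, 0 of 7 members were called, where 4.10% of 9032 genes were. In double KO against Trp53 KO, the Tut1 label without Trp53, it was 0 of 7 members and 3.21% of 8976 genes. In Trp53 KO against control, the Trp53 label with Tut1 intact, it was 0 of 7 and 3.83% of 9055 genes. In double KO against control it was 0 of 7 and 3.31% of 9022 genes. In double KO against Tut1 KO, the Trp53 label within Tut1 KO labels, 1 member was called, Vcan with a difference of 1.01. Among all 8950 genes there 3.90% were called, and 2.13% were called higher. Apart from double KO against control, each of these comparisons set a library with high Xist against one with Ddx3y. In those comparisons label and culture sex cannot be told apart, for the members and for every gene list below.

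Under a wider rule of 1.5-fold, Vcan was again the member called. It passed in Tut1 KO against control, where 12.1% of all genes passed, in double KO against Trp53 KO (7.89%), in Trp53 KO against control (8.42%) and in double KO against Tut1 KO (10.7%). In double KO against control no member passed and 7.76% of genes did. The median difference of the 7 members was -0.19 in Tut1 KO against control, 0.13 in double KO against Trp53 KO, -0.17 in Trp53 KO against control, 0.05 in double KO against Tut1 KO and -0.15 in double KO against control. Over all genes tested the medians were -0.09, 0.05, -0.05, 0.09 and -0.001 in the same order. The median size of a difference regardless of sign was 0.19, 0.13, 0.17, 0.22 and 0.15 for the members and 0.24, 0.16, 0.15, 0.23 and 0.14 for all genes, so the members were below all genes in 3 comparisons and above them in the others. The 5 comparisons share libraries with each other and are not independent.

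**Figure D3:**
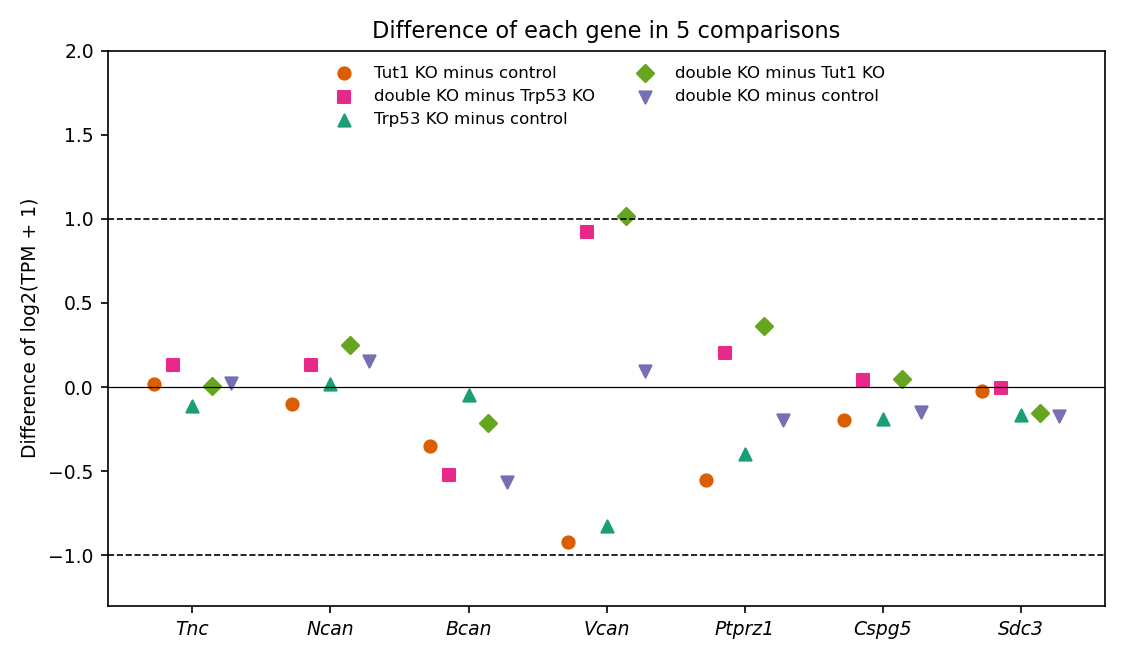
Difference of log2(TPM + 1) for the 7 genes tested (vertical axis) in 5 comparisons, with 1 point per comparison and dashed lines at the threshold of 1 in each direction. Vcan in double KO against Tut1 KO, at 1.01, is the point past a dashed line.

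Vcan differed by -0.92 in Tut1 KO against control and by 0.92 in double KO against Trp53 KO, so the Tut1 label went with opposite directions in cultures with and without Trp53. The Trp53 label gave -0.83 in Trp53 KO against control and 1.01 in double KO against Tut1 KO. The control and double KO were 0.10 apart. The mean of the control and double KO lay 0.92 above the mean of the other 2 libraries, and 226 of 9314 genes (2.43%) were separated by at least as much along that line. Corrected for GC content and length, the separation was 0.66, which 372 of 9305 genes (4.0%) reached. This grouping was chosen after the values were seen. It is the grouping of the Xist and Ddx3y levels, so for Vcan the joint effect of both labels and culture sex cannot be told apart. The neural stem cell markers summed to 12764, 11439, 10843 and 12569 TPM, with Fabp7 at 9441, 8095, 7902 and 9394 TPM, and 7 of the 12 markers were lower in the same pair of libraries as Vcan, where 28.5% of 9314 genes were. For Notch1, among those 7, the control and the Trp53 KO library were practically equal. Fabp7 set the order of the sum. The other 11 markers summed to 3323, 3344, 2942 and 3175 TPM, with the library labelled Tut1 KO highest, and Vim, Nes and Hes5 did not follow the Vcan pairing. The part of these markers in the Vcan result was not tested.

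Transcript composition moved with the libraries as well. The longest Vcan transcript has 12427 nucleotides, above 99.4% of 8469 expressed protein-coding genes, and 43.7% GC, above 19.6% of them. Ptprz1 has 8068 nucleotides and 44.5% GC. Across 8250 protein-coding genes, Tut1 KO against control had a Spearman's rho of 0.43 with GC content and of -0.36 with length, given as a description. Double KO against Tut1 KO had -0.49 and 0.32. The remaining comparisons were weaker. Double KO against Trp53 KO had -0.22 and 0.13, Trp53 KO against control 0.17 and -0.22, and double KO against control -0.05 and -0.10. After a correction for both properties the Vcan differences were -0.51 in Tut1 KO against control, 0.81 in double KO against Trp53 KO, -0.64 in Trp53 KO against control and 0.68 in double KO against Tut1 KO. The call in double KO against Tut1 KO was thus lost and the directions were kept. Vcan is annotated with 9 transcripts, among them Vcan-201 of 2321 nucleotides, and TPM summed over a gene depends on which of them are used. Isoforms were not analysed here.

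For Ptprz1 the correction brought Tut1 KO against control from -0.55 to -0.24 and double KO against Tut1 KO from 0.36 to 0.08. Its range over the 4 libraries went from 0.55 to 0.26. The neuronal markers summed to 241, 167, 212 and 219 TPM, mostly Map2 at 208, 141, 181 and 191 TPM. On the deposited scale the control and the culture labelled Tut1 KO were the highest and lowest for Ptprz1 as well. After the correction the Trp53 KO library was the lowest for Ptprz1. Snap25 and Rbfox3 were also lowest in the culture labelled Tut1 KO, but highest in the Trp53 KO library. Tubb3 was lowest in the Trp53 KO library, and Dcx was highest in the culture labelled Tut1 KO. The part of these markers in the Ptprz1 result was not tested. Bcan, with a shorter transcript of 3141 nucleotides and 60.7% GC, moved less in the Tut1 comparisons. Its difference was -0.35 as deposited and after the correction in Tut1 KO against control, and -0.52 and -0.49 in double KO against Trp53 KO. In double KO against Tut1 KO it went from -0.22 to -0.13. In Trp53 KO against control Bcan differed by -0.04, with a change of sign to 0.01 after the correction. Averaged over both Tut1 comparisons Bcan was -0.44, a size that 9.80% of 9314 genes reached, and it was under the threshold in each. That average was taken after the values were seen.

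**Figure D4:**
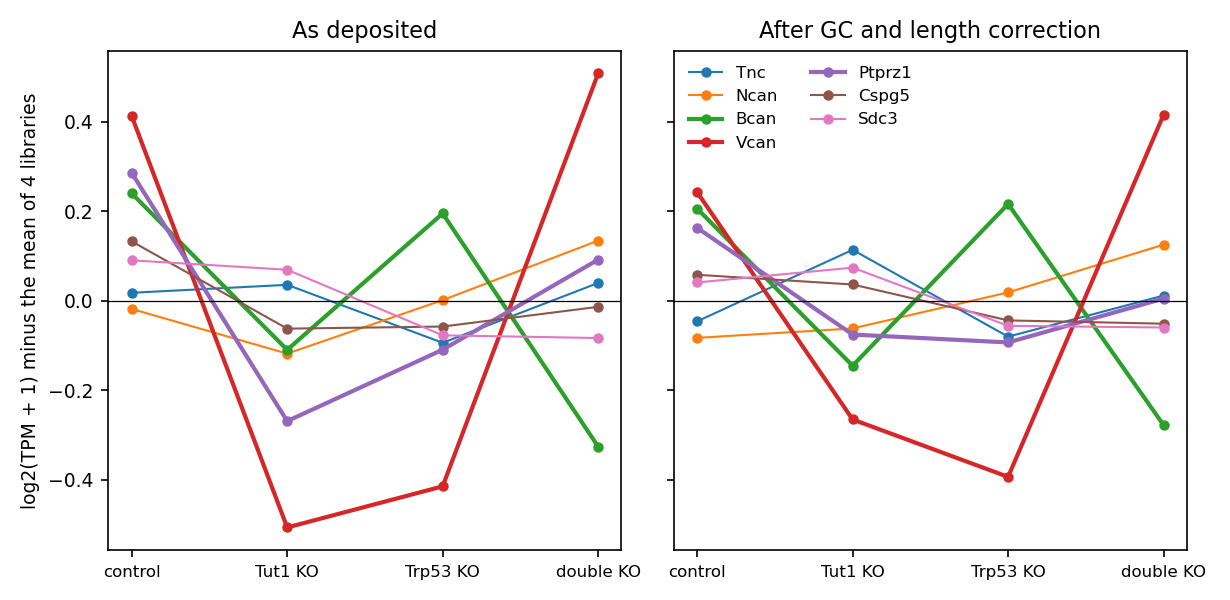
Level of the 7 genes in each library as log2(TPM + 1) minus the mean of the 4 libraries, as deposited (left) and after a correction for GC content and length (right). Lines join the values of a gene. Vcan keeps its high control and double KO values in both panels, while the range of Ptprz1 goes from 0.55 to 0.26.

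Tnc, Ncan, Cspg5 and Sdc3 differed by at most 0.25 in each of the 5 comparisons. Tnc differed by 0.02 in Tut1 KO against control and 0.13 in double KO against Trp53 KO, and Sdc3 by -0.02 and -0.01. For Ncan the values were -0.10 and 0.13, and for Cspg5 -0.19 and 0.04. In Trp53 KO against control Sdc3 had -0.17 and in double KO against Tut1 KO -0.15, so both Trp53 comparisons were below 0. The direction of differences this small depended on the scaling for Tnc, Ncan, Cspg5 and Sdc3 in some comparisons.

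The genes with the profile most like that of Vcan were Washc4, Rwdd4a and Fyttd1, by the root mean square distance of log2(TPM + 1) about its mean over 4 libraries, among 8474 protein-coding genes. Their distances were 0.10, 0.10 and 0.10. Washc4 had 17.4, 9.67, 10.8 and 18.0 TPM. Rwdd4a had 27.4, 14.7, 17.4 and 35.04 TPM, and Fyttd1 had 14.3, 6.74, 6.64 and 16.7 TPM. Over 4 libraries many genes can lie this close, and the likeness is a description.

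The genes around the members were read from 8 lists of 123 genes in all. None of the listed genes was called in any of the 5 comparisons, where 60 to 62 of them were tested and 3.21 to 4.10% of all genes were called. With a minimum of 1 TPM, 4 listed genes under 10 TPM were called lower in at least 1 comparison. They were Hs6st2, a heparan sulfate sulfotransferase gene, at 8.85, 5.59, 7.89 and 0.08 TPM, and Fgf2, Mmp16 and Col18a1, each under 5 TPM, all named after their values were seen. At that minimum 3.87 to 4.73% of all genes were called. The medians of the tested list genes at the minimum of 10 TPM were -0.08 in Tut1 KO against control, 0.06 in double KO against Trp53 KO, -0.03 in Trp53 KO against control, 0.09 in double KO against Tut1 KO and -0.02 in double KO against control, each within 0.02 of the median of all genes.

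Ligands and receptors held the most abundant gene of the lists, Ptn, which encodes pleiotrophin, a growth factor that binds Ptprz1 and Sdc3. Ptn was at 2068, 1610, 1785 and 2046 TPM. Itgb1, the integrin subunit beta 1, was at 278, 220, 273 and 284 TPM, and the annexin gene Anxa2 at 84.3, 91.4, 157 and 102 TPM. The Trp53 KO library was the high one for Anxa2, with 0.89 over the control. Of 20 listed genes 11 were tested, with medians of -0.16, 0.13, -0.24, 0.25 and -0.02 in Tut1 KO against control, double KO against Trp53 KO, Trp53 KO against control, double KO against Tut1 KO and double KO against control.

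Among the remaining lecticans, link proteins and tenascins, 1 of 7 was tested. This was Tnr, the tenascin R gene, at 12.4, 11.0, 9.54 and 11.5 TPM. Of 20 other proteoglycans 9 to 11 were tested, led by Cspg4 (NG2) at 67.6, 74.6, 53.4 and 57.2 TPM, agrin (Agrn) at 63.2, 37.9, 66.4 and 55.2 TPM and the glypican Gpc1 at 42.4, 43.8, 47.6 and 45.9 TPM. Agrn was low in the library labelled Tut1 KO, with -0.72 against the control. The medians of these proteoglycans ranged from 0.05 to 0.11 over the comparisons.

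Of 12 genes for hyaluronan 5 were tested. Tnfaip6, whose product modifies hyaluronan, was at 42.0, 37.9, 46.7 and 53.1 TPM, the receptor gene Hmmr at 47.1, 34.4, 45.3 and 43.6 TPM, and the hyaluronidase gene Hyal2 at 18.4, 36.1, 25.2 and 19.1 TPM. Hyal2 was highest in the library labelled Tut1 KO, with 0.94 over the control, just under the threshold. The list had medians from -0.14 to 0.34. With 5 genes these depended on the processing, and the median in Tut1 KO against control ran from -0.29 to 0.08 over the alternatives.

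The sugar chains of the proteoglycans need a linker, a polymer and sulfate. For the linker, 7 of 9 genes were tested, with B3gat3 at 51.7, 53.8, 50.9 and 40.8 TPM, the xylosyltransferase gene Xylt1 at 53.7, 38, 43.8 and 53.1 TPM and Ugdh, which makes UDP-glucuronate and shares exons with a predicted gene, at 46.0, 50.03, 33.8 and 40.6 TPM. For chondroitin sulfate chains 8 to 10 of 19 genes were tested, led by Papss1 (sulfate donor synthesis) at 134, 100.3, 115 and 122 TPM and the sulfotransferase genes Chst7 at 81.9, 79.5, 80.01 and 80.7 TPM and Chst11 at 51.3, 40.3, 41.6 and 41.8 TPM. Chst7 was the most even of these. For heparan sulfate chains 10 of 19 genes were tested, led by the sulfatase gene Sulf2 at 137, 156, 110.0 and 115 TPM, and by Ext2 at 62.4, 70.7, 65.4 and 68.4 TPM and Extl3 at 29.8, 30.4, 26.2 and 28.6 TPM. Sulf2 was lower in both libraries labelled as Trp53 deleted. Over the 5 comparisons the medians ran from -0.04 to 0.06 for the linker, from -0.16 to 0.07 for chondroitin sulfate and from -0.16 to 0.10 for heparan sulfate.

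Of 17 matrix proteases and inhibitors 8 were tested. Plat, tissue plasminogen activator, was at 282, 239, 247 and 258 TPM. The membrane metalloproteinase genes Mmp15 and Mmp14 were at 271, 262, 267 and 267 TPM and at 34.4, 48.1, 37.7 and 40.4 TPM. The medians ranged from -0.06 to 0.07.

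**Figure D5:**
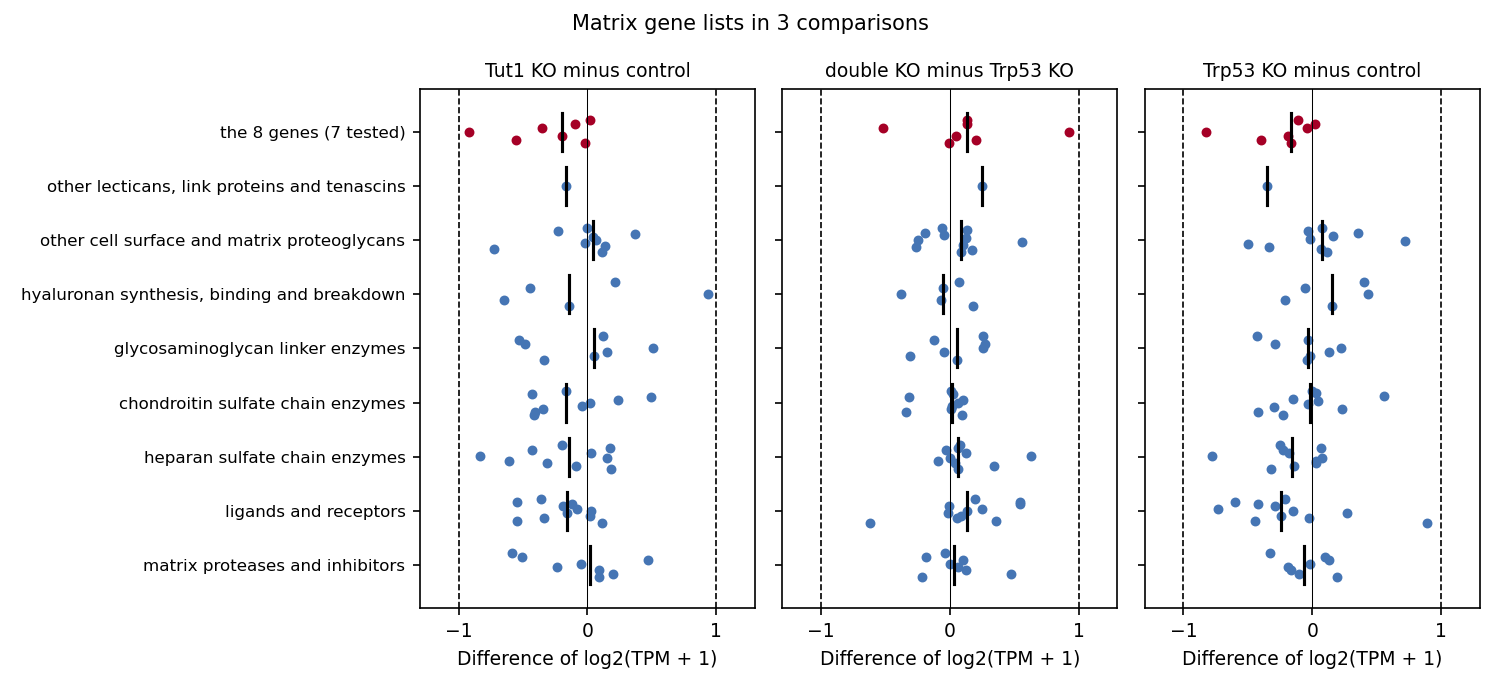
Difference of log2(TPM + 1) (horizontal axis) of each tested gene of the 8 members and of 8 further lists in 3 comparisons, with 1 point per gene, a vertical bar at the list median and dashed lines at the threshold of 1. No point lies past a dashed line in these 3 comparisons.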

How the data were processed

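RNA of 4 cultures was measured, 1 library each (a control, each single KO and the double KO), grouped by the titles of the samples. The authors deposited TPM per gene, which sums to between 999874 and 999892 in each library and keeps no depth, so no counting error was computed. The submitters' processing notes name Trimmomatic, HISAT2, StringTie and mm10, and the kit named in the labels is for short reads while the series text speaks of long ones, so the platform behind the table is uncertain. The study's methods name minimap2 and an Ensembl transcriptome for its long-read data. The annotation behind the TPM and any pooling are not given in the sources used here.

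Differences used a pseudocount of 1, a minimum of 10 TPM in at least 1 library compared and a threshold of 1. There were no replicates and no test was run. Gene coordinates, GC content and length of the longest transcript came from GENCODE M21 (GRCm38) by Ensembl ID, found for 99.4% of IDs, and promoter windows from RefSeq (GRCm38.p6). None of the 8 members shares exons with another gene on its strand. The members, lists and naming rule (the members, label checks, the 3 highest genes of each list, any list gene past the threshold, and the 3 nearest profiles) were chosen with earlier results of these data known. The grouping of control with double KO, the average over both Tut1 comparisons and the genes named at 1.5-fold were chosen after their values were seen. Alternatives were other pseudocounts, minimums, thresholds and scalings, the removal of 123 mitochondrial and ribosomal protein genes, and a quadratic correction for GC content and length. The code was tested on simulated data. Python 3.11.15, numpy 2.4.6, pandas 2.3.3 and matplotlib 3.10.9 were used.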

Additional observations from a re-analysis of the deposited data

Results flagged for a closer look

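For 4 of the 7 members tested, the comparison by the Tut1 label pointed in opposite directions in cultures with and without Trp53. Over all 8694 genes tested in both comparisons 54.2% did so, so the count is near that of all genes. With 1 library per group the difference between the 2 comparisons was not tested. On the log2(TPM + 1) scale, the former comparison less the latter came to -1.84 for Vcan, -0.76 for Ptprz1, -0.24 for Cspg5 and -0.23 for Ncan. A size at least as large was reached by 1.86% of those genes for Vcan, 10.7% for Ptprz1, 59.3% for Cspg5 and 60.1% for Ncan. After the correction for GC content and length, Vcan (-0.51 and 0.81) and Ptprz1 (-0.24 and 0.10) still had opposite signs in the 2 comparisons. Ncan (0.02 and 0.11) and Cspg5 (-0.02 and -0.01) no longer did, while Sdc3 (0.03 and -0.004) came to do so, which makes 3 of 7. The same grouping of libraries separates the levels of Xist and Ddx3y, and the 2 cannot be told apart.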

How the results depend on the processing

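The number of members called was 1 in double KO against Tut1 KO and 0 elsewhere. In double KO against Tut1 KO it became 0 with a pseudocount of 5, with the median of all genes set to 0, under quantile normalization and after the GC and length correction, where Vcan had 0.84, 0.93, 0.91 and 0.68. With a threshold of 1.5-fold it became 1 in Tut1 KO against control, double KO against Trp53 KO and Trp53 KO against control. In each case the gene was Vcan. The other 43 of 50 counts under an alternative were unchanged or within 1.5 times. Vcan ranged from -0.97 to -0.51 in Tut1 KO against control and from 0.77 to 0.97 in double KO against Trp53 KO, and Bcan from -0.35 to -0.26 and from -0.57 to -0.49. No called member changed its direction. Of the counts for the lists, 29 moved from 0 and 371 did not. A minimum of 1 TPM or none moved 7 each, the 1.5-fold threshold 11, the removal of mitochondrial and ribosomal protein genes 2, and quantile normalization and a median set to 0 moved 1 each (a hyaluronan gene in Tut1 KO against control). Of the 40 list medians, 25 took the other sign under at least 1 alternative, so no direction is read from them. The hyaluronan median in double KO against Tut1 KO ran from 0.05 to 0.34. Tnc in double KO against Tut1 KO, at 0.00, was below 0 in 4 alternatives. No paired analysis was possible because each group has 1 library. Depth is unknown, and single cultures limit every value.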

Other observations

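Beside Vcan, Ndst1 and Cntn1 are given as list genes that were lower where Xist was high. Both were chosen with their values in view, and no count of such list genes was made. The pairing was common, and 28.5% of 9314 genes had the control and the double KO both above the other libraries. Ptprz1 and Cspg5 among the members had it too, as did Ptn and Itgb8 among the list genes. Ndst1, which encodes an enzyme that sulfates heparan chains, had 21.4 TPM (control) and 19.2 TPM (double KO) against 11.6 TPM (labelled Tut1 KO) and 12.04 TPM (Trp53 KO). Cntn1, which encodes contactin 1, a binding partner of Ptprz1, had 32.9 and 31.7 TPM against 22.2 and 21.4 TPM in the same order. Ndst1 was seventh in likeness to Vcan among 8474 protein-coding genes. Both stayed under the threshold of 1 in every comparison. Further list genes past 1.5-fold in 1 comparison were Gpc3 (0.72 in Trp53 KO against control), Lrp1 (-0.73 in Trp53 KO against control) and, in Tut1 KO against control, Cemip2 (-0.64), Glce (-0.61) and Adamts1 (-0.59). Over all genes tested, 8.42% passed 1.5-fold in Trp53 KO against control and 12.1% in Tut1 KO against control.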
